A study of Mus musculus with 78 samples.

Results

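The insulin-like growth factor system was described in the arterial endothelium through 10 genes chosen by name: the ligand genes Igf1 and Igf2, the receptor genes Igf1r and Igf2r, and the binding protein genes Igfbp2, Igfbp3, Igfbp4, Igfbp5, Igfbp6 and Igfbp7. A gene was measured by a probe set annotated to its symbol alone, and of several such probe sets the one with the highest mean over all 78 arrays was used. By this rule 8 of the 10 genes were measured, among 17097 genes on the array, and all 8 were among the 11341 genes tested. Igf2r, whose probe set is annotated to Airn as well, and Igfbp7 were not analysed here.

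Endothelium-enriched RNA came from the left common carotid artery (LCA) and its right counterpart (RCA) in 39 mice, where lysis buffer was flushed through the lumen, with 1 array per artery. Every mouse, vehicle-treated mice included, had undergone partial ligation of the LCA, which leaves that artery with low and disturbed flow, and the unligated RCA of the same operated mouse was the control. Mice were given atorvastatin, a statin that inhibits cholesterol synthesis, at 10 mg/kg/day (mice 6 to 10) or vehicle (mice 1 to 5), by mouth, starting 2 days before surgery. Arteries were taken at 12 h, 24 h, 48 h and 2 weeks from separate mice, which gave 5 LCA and 5 RCA arrays per treatment and time, and 4 of each for atorvastatin at 48 h. The labels give no strain, genotype, age or sex. Values are the authors' log2 expression values, on which 1 unit is a 2-fold difference, and they are compared only within a probe set.

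IGF1 and IGF2 are growth and survival factors that signal mainly through the receptor tyrosine kinase encoded by Igf1r, which activates the PI3K-AKT and ERK pathways. The IGF2 receptor takes up IGF2 for degradation without growth signalling. The binding proteins hold the ligands in blood and matrix, prolong or block their action depending on the site, and are released from them by proteases. In the vessel wall, IGF1 acts on endothelial cells, smooth muscle cells and macrophages, and Igf2 is an imprinted gene expressed chiefly in the embryo and kept on in some adult vessels.

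Promoter windows are shown for the 4 genes whose changes are described at greatest length, 1 ligand, the receptor and 2 binding proteins. Each window runs 5′ to 3′ on the gene's own strand, from 250 bases before to 50 bases after the annotated start, as RefSeq gives it for build GRCm38.p6. Igf2 lies at chr7:142657447-142657746 on the minus strand, the most downstream of its 4 listed windows. Igf1r lies at chr7:67952007-67952306 on the plus strand. Igfbp2 lies at chr1:72824230-72824529 on the plus strand, the first of its 2 windows. Igfbp3 lies at chr11:7213874-7214173 on the minus strand. Capitals mark the GC box, which SP-family factors bind, searched as GGGCGG and on the other strand as CCGCCC, and the CACCC box, which Krüppel-like factors bind, searched as CCACCC and on the other strand as GGGTGG.
Igf2: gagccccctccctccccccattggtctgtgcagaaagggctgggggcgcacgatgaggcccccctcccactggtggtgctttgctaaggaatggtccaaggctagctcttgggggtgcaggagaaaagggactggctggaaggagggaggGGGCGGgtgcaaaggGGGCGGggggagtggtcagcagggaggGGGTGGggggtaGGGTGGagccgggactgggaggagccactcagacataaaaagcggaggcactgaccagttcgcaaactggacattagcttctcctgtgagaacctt
Igf1r: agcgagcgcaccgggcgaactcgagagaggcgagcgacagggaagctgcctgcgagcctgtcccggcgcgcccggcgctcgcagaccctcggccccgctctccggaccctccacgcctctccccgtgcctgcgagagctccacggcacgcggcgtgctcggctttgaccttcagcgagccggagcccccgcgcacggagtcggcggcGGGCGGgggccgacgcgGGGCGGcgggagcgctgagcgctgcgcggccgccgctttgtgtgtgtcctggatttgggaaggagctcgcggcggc
Igfbp2: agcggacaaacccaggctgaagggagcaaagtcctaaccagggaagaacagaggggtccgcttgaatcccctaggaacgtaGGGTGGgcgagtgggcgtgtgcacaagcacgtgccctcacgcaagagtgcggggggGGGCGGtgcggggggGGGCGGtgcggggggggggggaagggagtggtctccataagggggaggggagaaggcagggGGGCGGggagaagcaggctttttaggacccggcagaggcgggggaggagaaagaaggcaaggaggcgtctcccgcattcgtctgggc
Igfbp3: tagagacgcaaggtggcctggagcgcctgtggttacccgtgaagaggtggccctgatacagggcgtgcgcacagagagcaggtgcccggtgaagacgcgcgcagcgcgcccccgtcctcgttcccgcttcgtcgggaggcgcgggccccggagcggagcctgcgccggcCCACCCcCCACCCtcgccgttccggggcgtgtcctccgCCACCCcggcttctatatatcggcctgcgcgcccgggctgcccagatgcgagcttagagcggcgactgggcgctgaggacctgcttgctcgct

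The Igf2 window held 2 GC boxes and 2 CACCC boxes, the Igf1r window 2 GC boxes and no CACCC box, the Igfbp2 window 3 GC boxes and 1 CACCC box, and the Igfbp3 window 3 CACCC boxes and no GC box. The second Igfbp2 window held 2 CACCC boxes and no GC box, and of the other 3 Igf2 windows 1 held 1 CACCC box, 1 held 1 GC box and 1 held neither. Of 32851 mouse promoter windows of the same length, 35.7% held a GC box and 31.5% a CACCC box. The matches describe the letters in these windows.

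All 13 endothelial markers were bright enough to test, and their summed level (log2) lay lower in every LCA than in any RCA at 2 weeks and with atorvastatin at 48 h, and overlapped with vehicle at 48 h. At 48 h it lay between 13.40 and 14.13 in the LCA and 14.24 and 14.39 in the RCA with atorvastatin, and between 13.44 and 14.08 in the LCA and 14.02 and 14.31 in the RCA with vehicle. At 2 weeks it lay between 13.57 and 13.95 in the LCA and 14.14 and 14.42 in the RCA with atorvastatin, and between 13.63 and 13.89 in the LCA and 14.19 and 14.31 in the RCA with vehicle. At 48 h 8 of them fell and 2 rose in the LCA with atorvastatin, and 7 fell and 2 rose with vehicle, and at 2 weeks 6 fell and 3 rose with atorvastatin and 5 fell and 3 rose with vehicle. The part of endothelial RNA in the differences described was not tested. Markers of other cells also changed with ligation. In the LCA against the RCA, 10 of 12 macrophage markers and 5 of 5 tested neutrophil markers were higher with atorvastatin at 48 h, and 8 of 12 and 5 of 5 with vehicle. At 2 weeks 11 of 12 macrophage markers and 6 of 6 tested smooth muscle markers were higher in the LCA under both treatments. Of all genes tested, 31.8% were called (adjusted p under 0.05) with atorvastatin and 36.2% with vehicle at 48 h, and 29.9% and 27.7% at 2 weeks. Testing needed a value above the array median on at least 4 arrays. Cxcr2, Csf3r and Mmp9 of the neutrophil list met this on only 9, 10 and 12 of 78 arrays, and the smooth muscle marker Cnn1 on 13. The macrophage markers C1qa and Adgre1 met it on 16 and 18. The calls of all these markers may not be independent of that entry. Summed levels of other tissues varied between arrays, from 6.96 to 12.13 for adipocyte and 4.24 to 12.79 for erythroid markers. Skeletal muscle markers ranged from 5.51 to 12.28 in the RCA with atorvastatin at 2 weeks. In the LCA with vehicle at 48 h they ranged from 5.24 to 8.08. The part of these tissues in the differences was not tested. In these bulk samples, fewer cells of a type and less RNA per cell cannot be told apart. The Gapdh 3′ minus 5′ log2 ratio, a measure of RNA integrity, averaged 4.98 ± 0.47 in LCA samples and 4.04 ± 0.24 in RCA samples with vehicle at 24 h (SD, n = 5 each), and the other group means lay between 3.81 and 4.88. The Actb 3′ minus 5′ ratio had a higher mean in the LCA than in the RCA in all 8 groups of mice, with means of -0.201 to 0.185 in the LCA and -0.477 to -0.083 in the RCA, and its part in the differences between the arteries was not tested. The labels mention 4 batches of RNA extraction and profiling but not their members, so batch cannot be told apart from time or treatment. In 2 vehicle mice the LCA stood apart from the rest of its group: mouse 4 at 48 h had no rise of neutrophil markers (mean LCA minus RCA -0.14, against 4.19 to 5.19 in the other 4 mice), and mouse 2 at 2 weeks had no rise of smooth muscle markers (-0.34, against 1.95 to 3.49). For the 8 measured genes, the differences of LCA and RCA in these 2 groups are therefore given with and without that mouse where a call was made. These recounts cover vehicle only. With atorvastatin at 48 h, mice 7 and 8 also had small Igfbp3 differences (0.35 and 0.61, against 6.13 and 6.72 in mice 6 and 9). For the marker lists, leaving the mouse out moved the counts with vehicle to 5 falls of fibroblast markers (4 with it) and 1 fall of lymphatic endothelial markers (0) at 48 h, and to 2 rises of fibroblast markers (3) and 0 of neutrophil markers (1) at 2 weeks; no other marker count changed.

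A gene counts as called at a Benjamini-Hochberg adjusted p under 0.05 in limma, fitted to the LCA minus RCA difference of each mouse over all 11341 genes. The SE and p of a gene rest on 1 spread shared by all 8 groups of mice. They do not measure the spread of the mice of 1 group. At 12 h, 1 of the 8 genes was called with atorvastatin (1.68% of all genes tested were) and 1 with vehicle (2.39%). At 24 h, 3 were called with atorvastatin (13.1%) and 2 with vehicle (14.3%). At 48 h the counts were 3 with atorvastatin (31.8%) and 4 with vehicle (36.2%), and 5 with vehicle without mouse 4. At 2 weeks they were 5 with atorvastatin (29.9%) and 5 with vehicle (27.7%), and 4 with vehicle without mouse 2. Igfbp2 and Igfbp3 passed the filter on low values only through LCA arrays in which they were high, on 9 and 6 arrays, so they could only enter the test by differing. Neither the counts that hold them nor their p-values, those between times included, are independent of that entry, and their values are given as a description. With no filter, where all 17097 genes entered, Igfbp3 at 48 h had an adjusted p of 0.000698 with atorvastatin and 5.52e-06 with vehicle, and Igfbp2 at 2 weeks 4.8e-15 with atorvastatin and 1.03e-11 with vehicle. The plot of mean differences shows how the genes divided: Igf1r was higher in the LCA from 12 h on, Igf2 fell in steps, Igfbp3 was high at 48 h and Igfbp2 at 2 weeks.

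**Figure D1:**
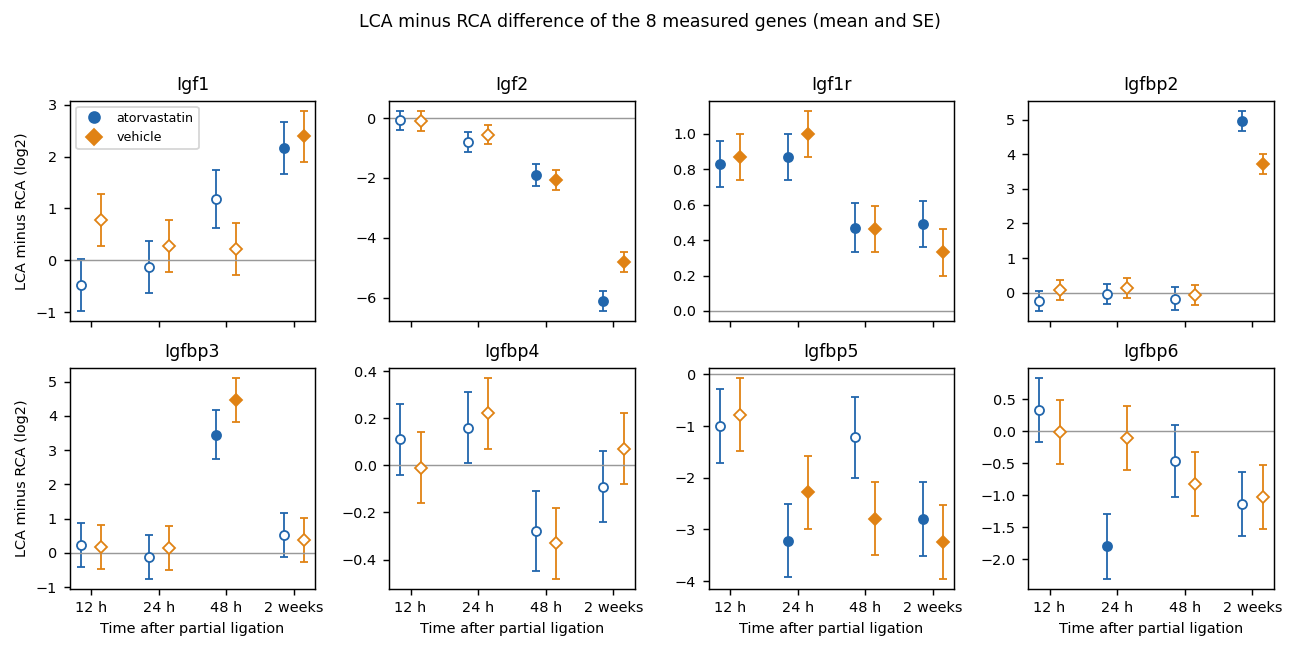
Mean LCA minus RCA difference (log2, vertical axis) of the 8 measured genes at each time after partial ligation, atorvastatin circles left of vehicle diamonds, with the SE of the limma fit as bars (n = 5 mice, 4 for atorvastatin at 48 h). Filled symbols passed the adjusted threshold; Igf2 reached -6.11 and -4.81 at 2 weeks, and Igfbp4 stayed between -0.33 and 0.22. The vertical scales differ between panels.

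Igf2, which encodes the fetal-type ligand IGF2, was strongly expressed in the RCA and fell in the LCA in steps. At 12 h its LCA values with atorvastatin were 8.89, 8.67, 7.83, 9.38 and 8.59, against 8.52, 9.38, 8.63, 9.21 and 8.01 in the RCA. With vehicle they were 8.74, 8.80, 8.94, 8.13 and 8.53 in the LCA, against 9.10, 8.95, 8.70, 8.88 and 8.08 in the RCA. The arteries overlapped under both treatments, and the difference was -0.08 and -0.11 (SE 0.33 each). At 24 h the 5 LCA values with atorvastatin, 8.0 to 8.76, all lay below the 5 RCA values, 8.96 to 9.36, and the difference of -0.81 did not pass the test (95% interval -1.48 to -0.13, adjusted p = 0.109). It passed there in the mean of the 2 Igf2 probe sets (-1.04, adjusted p = 0.0219) and in the fit to those mice alone (-0.81, adjusted p = 0.0206). With vehicle at 24 h the arteries overlapped (-0.55, adjusted p = 0.291). The second Igf2 probe set alone differed at 24 h by -1.28 with atorvastatin (SD 0.91) and -1.21 with vehicle (SD 0.51).

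By 48 h Igf2 had fallen in every mouse. With atorvastatin the LCA held 6.54, 8.18, 8.87 and 7.14, against 9.44, 9.68, 9.60 and 9.58 in the RCA. With vehicle the LCA held 6.34, 7.60, 6.61, 8.10 and 6.20, against 9.29, 9.20, 9.36, 8.69 and 8.59 in the RCA. No LCA value reached the lowest RCA value of its treatment, while the LCA values themselves spread from 6.54 to 8.87 with atorvastatin and from 6.20 to 8.10 with vehicle. The fall was -1.89 with atorvastatin (SE 0.37, adjusted p = 0.000234) and -2.06 with vehicle (SE 0.33, adjusted p = 1.47e-05), and -2.43 with vehicle without mouse 4. In the fit to the 4 atorvastatin mice alone the same difference had an adjusted p of 0.0649.

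At 2 weeks Igf2 was low in the LCA of 9 of 10 mice and still high in the RCA. With atorvastatin the LCA held 3.40, 2.86, 2.75, 3.20 and 3.49, against 9.31, 9.29, 9.23, 8.89 and 9.52 in the RCA. With vehicle the LCA held 3.10, 6.68, 3.68, 4.22 and 3.31, against 8.74, 9.15, 8.70, 9.25 and 9.20 in the RCA. Only mouse 2 of the vehicle group kept a value above the array median in its LCA. The difference was -6.11 with atorvastatin (SE 0.33, adjusted p = 3.01e-16) and -4.81 with vehicle (SE 0.33, adjusted p = 2.32e-13), and -5.40 with vehicle without mouse 2. RMA compresses signals at this level, so the size of the fall is limited by the floor of the array. The second Igf2 probe set gave -4.43 with atorvastatin and -3.70 with vehicle at 2 weeks. In the RCA itself the change of Igf2 over the 4 times did not pass the test (adjusted p = 0.0955 with atorvastatin, and RCA group means between 8.74 and 9.57 over both treatments). With atorvastatin it passed with the probe sets averaged (adjusted p = 0.0394) or without mouse 7 of 12 h (adjusted p = 0.0367). Of 3 tested lymphatic endothelial markers 1 fell with atorvastatin and 2 with vehicle at 2 weeks, and the summed level of that list lay between 8.11 and 8.34 in the LCA and 8.97 and 9.18 in the RCA with atorvastatin, and between 7.81 and 9.05 in the LCA and 8.61 and 9.34 in the RCA with vehicle. The part of those cells in the Igf2 difference was not tested. Ranked by group mean, the 2 lowest of the 16 groups were the LCA at 2 weeks with atorvastatin (3.14 ± 0.32) and vehicle (4.20 ± 1.45), then the LCA at 48 h with vehicle (6.97 ± 0.84) and atorvastatin (7.68 ± 1.04). Of the steps between neighbours in that order, only those below the 48 h vehicle LCA and below the highest group, the 48 h atorvastatin RCA (9.57 ± 0.10), were wider than the SD of both groups.

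**Figure D2:**
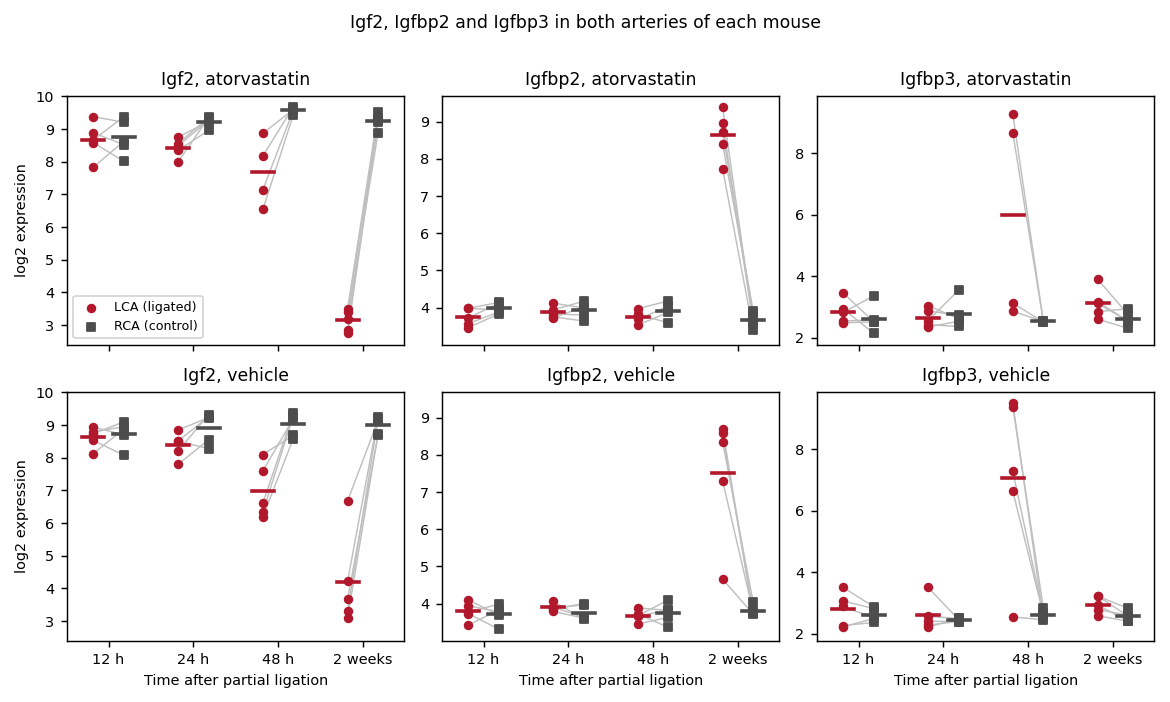
Expression (log2) of Igf2, Igfbp2 and Igfbp3 in the LCA (red circles, left) and RCA (grey squares, right) at each time after partial ligation, atorvastatin above and vehicle below; a grey line joins the arteries of a mouse and short bars are group means. Igf2 is at 4.22 or below in 9 of 10 LCA at 2 weeks and at 6.68 in vehicle mouse 2, Igfbp2 is high in 9 of 10 LCA at 2 weeks, and Igfbp3 is high in 6 of 9 LCA at 48 h.

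The genes whose LCA minus RCA difference followed that of Igf2 most closely over the 39 mice were Slc4a4 (Pearson r = 0.958), a sodium bicarbonate cotransporter gene, Klk11 (0.957), a kallikrein gene, and the keratin gene Krt80 (0.945). The 39 mice share the same 8 groups, and with the group means removed the coefficients were 0.726, 0.838 and 0.481. At 2 weeks, vehicle mouse 2 had the smallest fall of Slc4a4 (-1.73) and Klk11 (-1.11) as of Igf2 (-2.47). The coefficients describe likeness of pattern across these mice.

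Igf1, the gene of the growth hormone-dependent ligand IGF1, which macrophages also make, was higher in the LCA at 2 weeks. With atorvastatin the LCA held 7.68, 6.80, 7.21, 6.94 and 6.66, against 4.18, 4.46, 6.01, 5.01 and 4.79 in the RCA. With vehicle the LCA held 7.71, 7.82, 6.77, 7.60 and 7.66, against 4.12, 5.34, 6.20, 5.99 and 3.96 in the RCA. Every LCA value exceeded every RCA value of its treatment. The rise was 2.17 with atorvastatin (SE 0.50, adjusted p = 0.000875) and 2.39 with vehicle (SE 0.50, adjusted p = 0.000334), and 2.36 with vehicle without mouse 2.

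Before 2 weeks no difference of Igf1 passed the test, and single mice ranged widely. At 48 h with atorvastatin the LCA held 5.87, 6.29, 9.33 and 4.51, against 5.92, 5.92, 5.60 and 3.81 in the RCA. Mouse 8 alone carried most of the mean difference of 1.19 (adjusted p = 0.102), and in the other 3 mice it lay between -0.05 and 0.70. At 12 h and 24 h the LCA values lay between 4.58 and 7.09 and overlapped the RCA values under both treatments. The other Igf1 probe sets gave smaller rises at 2 weeks, between 0.57 and 1.25 with atorvastatin and 0.63 and 1.60 with vehicle. Of the steps between neighbours among the 16 group means, only the one up to the vehicle LCA at 2 weeks, the highest (7.51 ± 0.42), was wider than the SD of both neighbours.

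The Igf1 rise at 2 weeks stood beside that of the macrophage marker list. Its summed level lay between 12.16 and 12.90 in the LCA and 8.18 and 9.52 in the RCA with atorvastatin, and between 12.26 and 12.98 in the LCA and 7.17 and 10.54 in the RCA with vehicle. Of the 12 markers 11 were called higher under each treatment, Cd14 being the one that was not. Of 5 T cell markers 2 were called higher with atorvastatin and 5 with vehicle, and their summed level lay between 6.57 and 7.54 in the LCA and 6.11 and 8.01 in the RCA with atorvastatin, and between 7.07 and 8.75 in the LCA and 6.05 and 7.30 in the RCA with vehicle. The genes nearest to Igf1 in pattern over the 39 mice were the complement gene C1qb (r = 0.831), Fcrls (0.780) and C1qc (0.779), of which C1qb and C1qc belong to that marker list. With the group means removed r was 0.774, 0.687 and 0.566. In atorvastatin mouse 8 at 48 h, C1qb differed by 4.49 and Fcrls by 3.82, beside 3.72 for Igf1. The T cell markers Cd2, Cd3d, Cd3g and Cd3e lay above the array median on only 6, 8, 8 and 13 of 78 arrays. For the macrophage markers C1qa and Adgre1 it was 16 and 18 arrays. The calls of all these markers may not be independent of that entry to the test. The part of the macrophage and T cell signals in the Igf1 difference was not tested.

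Igf1r, the signalling receptor, was the member called first, and the probe set used was called at every time under both treatments. With atorvastatin at 12 h the LCA held 8.66, 9.01, 8.41, 9.22 and 8.74, against 8.03, 8.09, 7.38, 8.13 and 8.24 in the RCA. In vehicle mice at 12 h the LCA held 8.56, 8.71, 9.07, 8.13 and 8.83, against 8.10, 7.37, 8.12, 7.31 and 8.04 in the RCA. All LCA values lay above all RCA values of the same treatment. The difference was 0.83 with atorvastatin (SE 0.13, 1.78-fold, adjusted p = 0.000115) and 0.87 with vehicle (SE 0.13, 1.83-fold, adjusted p = 5.32e-05). In fits to the mice of 1 group alone the adjusted p was 0.159 with atorvastatin and 0.0681 with vehicle. The other Igf1r probe sets gave 0.32 to 0.62 with atorvastatin (SD 0.62 to 0.70) and 0.49 to 1.24 with vehicle at 12 h. At 48 h they gave 0.23 to 0.64 with atorvastatin and 0.30 to 0.47 with vehicle. The Gapdh 3′ minus 5′ ratio with atorvastatin at 12 h was 4.88 ± 0.81 in LCA samples and 4.21 ± 0.21 in RCA samples (SD, n = 5 each), and its part in the Igf1r difference was not tested.

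At 24 h the atorvastatin LCA values lay within 8.64 and 8.74. With atorvastatin the LCA held 8.74, 8.69, 8.67, 8.73 and 8.64, against 7.73, 7.92, 7.85, 7.92 and 7.69 in the RCA. In vehicle mice the LCA held 8.79, 8.74, 8.51, 8.80 and 8.66, against 7.93, 8.03, 7.35, 7.60 and 7.61 in the RCA. The arteries did not overlap, and all 10 mice had a rise of at least 0.72. The difference was 0.87 with atorvastatin (SE 0.13, adjusted p = 1.01e-05) and 1.0 with vehicle (SE 0.13, adjusted p = 1.09e-06). The other Igf1r probe sets gave 0.41 to 0.65 with atorvastatin and 0.30 to 1.16 with vehicle at 24 h. The Gapdh 3′ minus 5′ ratio, given above, was also higher in the LCA than in the RCA at 24 h, with atorvastatin too (4.56 ± 0.29 and 4.10 ± 0.20, SD, n = 5 each); its part in the Igf1r difference was not tested.

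Later the rise of Igf1r was smaller. At 48 h it was 0.47 with atorvastatin (SE 0.14, adjusted p = 0.0107) and 0.46 with vehicle (SE 0.13, adjusted p = 0.00421), and 0.38 with vehicle without mouse 4. Single mice differed: atorvastatin mouse 9 had 0.04 and vehicle mouse 5 had 0.01, whereas atorvastatin mouse 6 had 0.81 and vehicle mouse 2 had 0.88. Without atorvastatin mouse 6 the call at 48 h was lost (0.35, adjusted p = 0.125), and in fits to the mice of 1 group alone neither 48 h difference passed (adjusted p = 0.215 with atorvastatin and 0.101 with vehicle). At 2 weeks the difference was 0.49 with atorvastatin (SE 0.13, adjusted p = 0.00288) in 5 of 5 mice, and 0.26 to 0.29 in the other probe sets. With vehicle it was 0.33 (SE 0.13, adjusted p = 0.0444) in 4 of 5 mice, and this call was lost without mouse 1, 2, 4 or 5 (0.26 to 0.35, adjusted p = 0.0612 to 0.186). In 2 of the other 3 Igf1r probe sets the vehicle difference at 2 weeks was 0.00 and -0.08, so the gene's probe sets disagree there, and their mean gave 0.11 (adjusted p = 0.54). The RCA groups held the 8 lowest means (7.70 ± 0.28 to 8.07 ± 0.11) and the LCA groups the 8 highest (8.33 ± 0.28 to 8.81 ± 0.31), but no step between neighbours in that order was wider than the SD of both.

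Setd3 (r = 0.777), which encodes an actin histidine methyltransferase, Rab27b (0.775), a secretory Rab GTPase gene, and the transcription factor gene Klf15 (0.773) were nearest to Igf1r in pattern over the 39 mice, and r was 0.603, 0.603 and 0.525 with the group means removed.

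**Figure D3:**
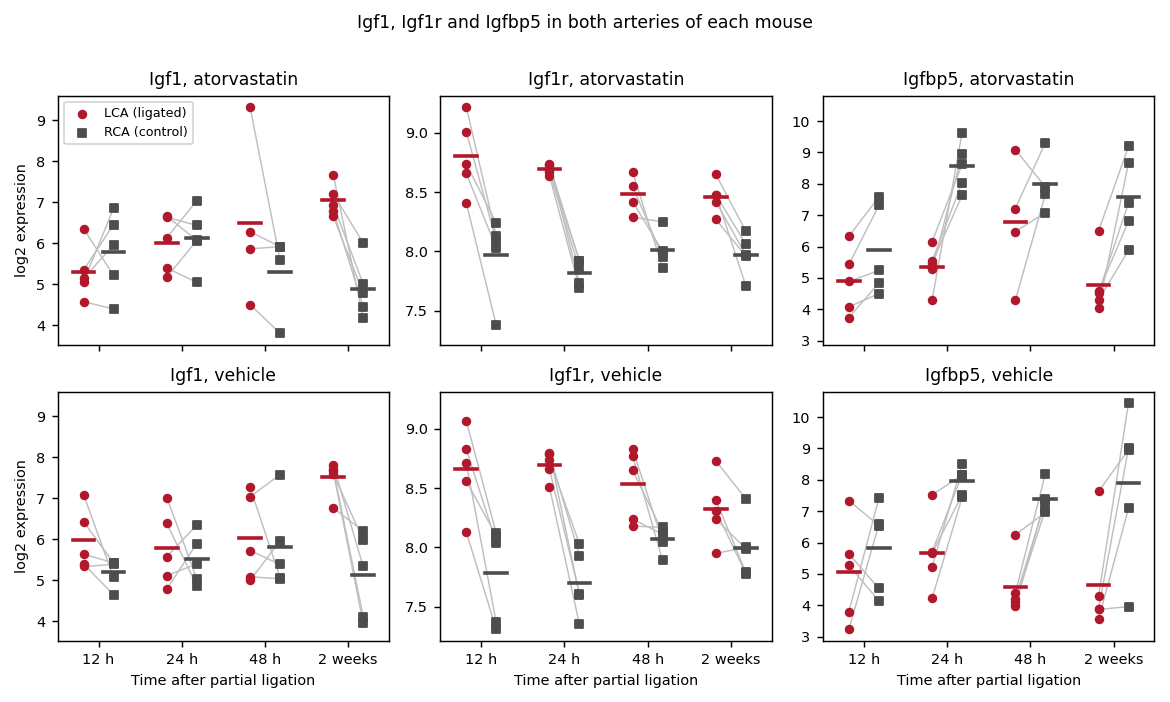
Expression (log2) of Igf1, Igf1r and Igfbp5 in the LCA (red circles, left) and RCA (grey squares, right) at each time after partial ligation, atorvastatin above and vehicle below, with lines joining the arteries of a mouse and short bars for group means. Igf1 separates by artery at 2 weeks, Igf1r at 12 h and 24 h under both treatments while with vehicle at 2 weeks its arteries overlap, and Igfbp5 is lower in the LCA of most mice from 24 h on.

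Igfbp3, which encodes the main carrier of the ligands in serum, was close to the floor of the array everywhere but in the LCA at 48 h. There the LCA held 8.67, 2.86, 3.12 and 9.27 with atorvastatin, against 2.54, 2.52, 2.51 and 2.54 in the RCA. In vehicle mice the LCA held 9.39, 6.64, 7.28, 2.54 and 9.51, against 2.84, 2.63, 2.64, 2.45 and 2.50 in the RCA. The values fell far apart: 6 LCA were at 6.64 or above, while atorvastatin mice 7 and 8 and vehicle mouse 4 were at 3.12 or below, like the RCA. The mean difference was 3.45 with atorvastatin (SE 0.72, adjusted p = 0.000433) and 4.46 with vehicle (SE 0.64, adjusted p = 3.15e-06), and 5.55 with vehicle without mouse 4. The SD between the 5 vehicle mice was 2.74, wider than the shared spread behind the SE of 0.64. The SD between the 4 atorvastatin mice was 3.44, and in the fit to those mice alone the difference did not pass (adjusted p = 0.144).

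At 12 h, 24 h and 2 weeks Igfbp3 lay between 2.21 and 3.90 in the LCA and 2.14 and 3.54 in the RCA, and no difference passed the test. The LCA minus RCA difference was higher at 48 h than at 24 h by 3.56 with atorvastatin (adjusted p = 0.00778, and 0.0117 with no filter) and 4.31 with vehicle (adjusted p = 0.0012, and 0.00174 with no filter). The change of that difference from 48 h to 2 weeks was -4.08 with vehicle (adjusted p = 0.00521, and 0.00754 with no filter). With atorvastatin, at -2.94, it did not pass (adjusted p = 0.0516), but did with the probe sets averaged (-2.94, adjusted p = 0.046), with the title-code number as a random block (-2.96, adjusted p = 0.049) and without mouse 7 (-3.98, adjusted p = 0.00554) or mouse 8 (-3.89, adjusted p = 0.0128) of 48 h. The atorvastatin call of 48 h against 24 h was lost without mouse 6 (2.67, adjusted p = 0.0645) or mouse 9 (2.47, adjusted p = 0.079).

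Over the 39 mice Igfbp3 was nearest in pattern to Esm1 (r = 0.939), the endothelial tip cell gene endocan, and to the replication genes Fen1 (0.936), a flap endonuclease, and Uhrf1 (0.918), which maintains DNA methylation. With the group means removed r was 0.875, 0.891 and 0.843. Esm1 was low in the same mice as Igfbp3: at 48 h Esm1 differed by 7.50, 1.32, 0.30 and 7.69 in atorvastatin mice 6 to 9, and by 7.59, 5.14, 7.70, -0.34 and 7.66 in vehicle mice 1 to 5. Igfbp3 differed by 6.13, 0.35, 0.61 and 6.72 in the atorvastatin mice, and by 6.54, 4.02, 4.65, 0.10 and 7.01 in the vehicle mice. Igf2 differed by -2.90, -1.50, -0.72 and -2.44 in the same atorvastatin mice, and by -2.96, -1.60, -2.75, -0.59 and -2.40 in the vehicle mice. The 3 mice with the smallest Igfbp3 difference, atorvastatin mice 7 and 8 and vehicle mouse 4, were also the ones with the smallest falls of Igf2, an order noticed after the values were seen.

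Leukocyte markers varied across these mice as well. The mean LCA minus RCA difference of the 5 measured neutrophil markers at 48 h was 5.66, 1.30, 2.91 and 4.03 in the atorvastatin mice, and 4.35, 4.19, 5.19, -0.14 and 5.08 in the vehicle mice. For the 12 macrophage markers it was 1.59, 1.25, 3.31 and 2.26 with atorvastatin, and 2.55, 1.22, 2.01, 0.83 and 1.96 with vehicle. Atorvastatin mouse 8 combined the highest macrophage difference with an Igfbp3 difference of 0.61. The summed neutrophil level lay between 8.39 and 12.23 in the LCA and 5.84 and 6.49 in the RCA with atorvastatin, and between 5.84 and 12.38 in the LCA and 5.88 and 7.25 in the RCA with vehicle. The part of these cells in the Igfbp3 difference was not tested.

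**Figure D4:**
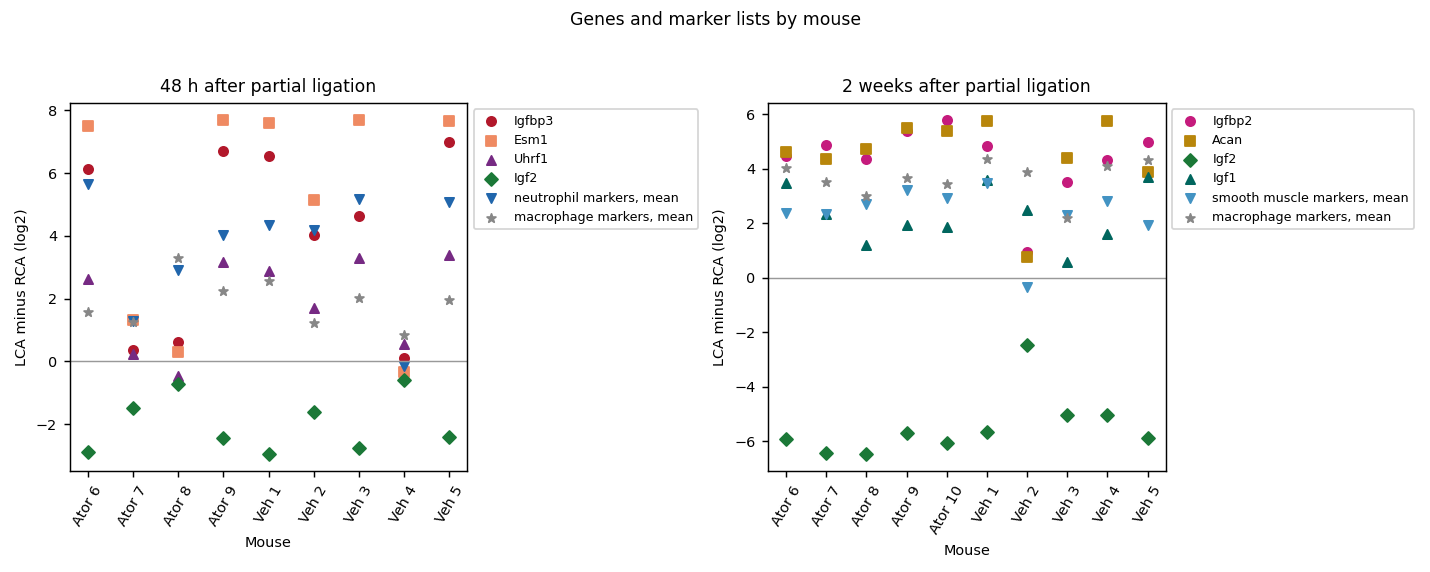
LCA minus RCA difference (log2, vertical axis) of single genes and the mean difference of marker lists in each mouse (horizontal axis, Ator for atorvastatin, Veh for vehicle) at 48 h (left) and 2 weeks (right). At 48 h Igfbp3 and Esm1 are near 0 in Ator 7, Ator 8 and Veh 4, apart from 1.32 for Esm1 in Ator 7, and at 2 weeks Igfbp2, Acan and the smooth muscle markers are low in Veh 2.

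Igfbp2, whose product binds IGF2 with high affinity, was low in both arteries through 48 h and high in the LCA at 2 weeks. With atorvastatin the LCA held 8.41, 8.73, 7.74, 8.97 and 9.40 at 2 weeks, against 3.92, 3.86, 3.39, 3.60 and 3.61 in the RCA. In vehicle mice the LCA held 8.58, 4.66, 7.31, 8.36 and 8.70, against 3.75, 3.72, 3.79, 4.05 and 3.74 in the RCA. All LCA values exceeded all RCA values, with mouse 2 of the vehicle group far below the other LCA. The rise was 4.97 with atorvastatin (SE 0.29, adjusted p = 2.11e-15) and 3.71 with vehicle (SE 0.29, adjusted p = 5.38e-12), and 4.41 with vehicle without mouse 2. The SD between the mice was 0.60 with atorvastatin and 1.65 with vehicle. The SE and p also draw on the earlier groups, where the gene was low and varied little, so they understate the spread of the vehicle mice. At 12 h, 24 h and 48 h the values lay between 3.42 and 4.12 in the LCA and 3.31 and 4.18 in the RCA, and no difference passed the test. The LCA minus RCA difference was higher at 2 weeks than at 48 h, by 5.14 with atorvastatin (adjusted p = 1.28e-09, and 2.47e-09 with no filter) and 3.78 with vehicle (adjusted p = 1.1e-07, and 2.02e-07 with no filter).

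The nearest genes in pattern were the aggrecan gene Acan (r = 0.971), Nrn1 (0.968), which encodes neuritin, and the smooth muscle actin gene Actg2 (0.961). With the group means removed r was 0.788, 0.694 and 0.687. Vehicle mouse 2 at 2 weeks was low for each of them, with Acan 0.75, Nrn1 0.72 and Actg2 0.49, against 3.87 to 5.76 for Acan in the other 4 vehicle mice. The summed smooth muscle level lay between 13.19 and 13.86 in the LCA and 10.06 and 11.14 in the RCA with atorvastatin at 2 weeks, and between 10.51 and 13.63 in the LCA and 8.83 and 10.81 in the RCA with vehicle. All 6 tested markers (Acta2, Cnn1, Itga8, Lmod1, Myh11 and Myocd) were called higher in the LCA at 2 weeks under both treatments, by 1.72 to 4.01. At 48 h only Acta2 was called (2.45 with atorvastatin and 2.14 with vehicle), when the Igfbp2 difference was -0.17 with atorvastatin and -0.07 with vehicle. Of 3 tested pericyte markers 1 was called higher at 2 weeks under each treatment, and the summed level of that list lay between 8.99 and 10.98 in the LCA and 7.74 and 8.13 in the RCA with atorvastatin, and between 8.03 and 10.80 in the LCA and 8.05 and 9.19 in the RCA with vehicle. The pericyte marker Rgs5 lay above the array median on only 10 of 78 arrays, so its tests may not be independent of that entry. The part of smooth muscle and pericyte RNA in the Igfbp2 and Igf2 differences was not tested.

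Igfbp5, which encodes a matrix-binding carrier made by mesenchymal and smooth muscle cells, was lower in the LCA from 24 h on, except with atorvastatin at 48 h. At 12 h the difference was -1.0 with atorvastatin and -0.78 with vehicle, and neither passed. At 24 h with atorvastatin the LCA held 6.16, 5.54, 5.49, 4.30 and 5.29, against 8.62, 8.04, 7.63, 9.63 and 8.94 in the RCA. With vehicle the LCA held 5.23, 4.23, 7.52, 5.67 and 5.71, against 8.49, 7.44, 8.15, 7.51 and 8.16 in the RCA. The arteries were apart with atorvastatin, and with vehicle mouse 3 brought the LCA into the RCA range. The difference was -3.22 with atorvastatin (SE 0.71, adjusted p = 0.00197) and -2.28 with vehicle (SE 0.71, adjusted p = 0.026). The vehicle call was lost without mouse 1, 2 or 5 (-2.24 to -2.04, adjusted p = 0.0774 to 0.104). From 12 h to 24 h the RCA mean rose from 5.89 to 8.57 with atorvastatin and from 5.84 to 7.95 with vehicle. The LCA mean went from 4.89 to 5.35 with atorvastatin and from 5.06 to 5.67 with vehicle, so it did not fall over that step. In the RCA itself the change over the 4 times did not pass with all mice. With vehicle it passed without mouse 1 of 2 weeks (adjusted p = 0.0117).

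At 48 h the difference was called with vehicle (-2.79, SE 0.71, adjusted p = 0.00222, and -2.75 without mouse 4). The vehicle LCA held 3.98, 6.25, 4.39, 4.11 and 4.21, all below the RCA at 7.38, 6.96, 8.19, 7.04 and 7.31. With atorvastatin the LCA held 4.29, 9.09, 7.21 and 6.48, against 7.66, 7.90, 9.31 and 7.08 in the RCA, and the groups overlapped. There the difference of -1.22 did not pass (SE 0.79, adjusted p = 0.247), and the test of atorvastatin against vehicle on it gave 1.57 (95% interval -0.58 to 3.72, adjusted p = 0.975). At 2 weeks the LCA minus RCA difference was -2.80 with atorvastatin (SE 0.71, adjusted p = 0.00231) and -3.24 with vehicle (SE 0.71, adjusted p = 0.000557), and -3.72 with vehicle without mouse 2. The RCA values at 2 weeks ranged from 3.96 to 10.45 with vehicle, the widest range of the gene in the 16 groups, and mouse 1 had low values in both arteries (3.87 in the LCA and 3.96 in the RCA). Igfbp5 was nearest in pattern to Sema3c (r = 0.757), Dpep1 (0.673), a fibroblast marker, and Cd209f (0.637).

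Igfbp6, whose product prefers IGF2 over IGF1, was called at 1 time and treatment. At 24 h with atorvastatin the LCA held 4.56, 5.13, 4.74, 5.21 and 3.65, all below the RCA at 6.83, 6.61, 5.88, 6.70 and 6.27. The difference was -1.80 (SE 0.50, adjusted p = 0.0145) and lost its call without mouse 10 (-1.59, adjusted p = 0.0835) or mouse 6 (-1.68, adjusted p = 0.0519). That RCA group had the highest mean of the 16 groups (6.46 ± 0.38). The step of 1.15 up to it was wider than the SD of both neighbours, as was the step up to the vehicle RCA at 48 h (4.63 ± 0.83). At 24 h the LCA mean was 4.66 ± 0.62 with atorvastatin and 5.05 ± 0.96 with vehicle, and the vehicle RCA mean was 5.15 ± 0.47. With vehicle at 24 h the LCA held 6.42, 3.77, 5.37, 4.80 and 4.91, overlapping the RCA at 4.61, 4.80, 5.74, 5.51 and 5.09. At 2 weeks it was lower in 5 of 5 atorvastatin mice, but the difference of -1.13 did not pass (95% interval -2.15 to -0.10, adjusted p = 0.091), and passed in the fit to those mice alone (adjusted p = 0.00777). Its nearest genes in pattern were Naalad2 (r = 0.818), Chrdl1 (0.789), a BMP antagonist gene, and Fbln1 (0.766), the fibulin-1 gene. Of 9 tested fibroblast markers, 1 fell with atorvastatin and 1 fell and 1 rose with vehicle at 24 h, 4 fell with vehicle and 2 with atorvastatin at 48 h, and 4 fell and 3 rose at 2 weeks under each treatment. The summed fibroblast level at 24 h lay between 10.59 and 12.16 in the LCA and 11.81 and 12.24 in the RCA with atorvastatin, and between 10.10 and 12.30 in the LCA and 11.12 and 11.87 in the RCA with vehicle. The part of fibroblast RNA in the Igfbp5 and Igfbp6 differences was not tested.

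Igfbp4, which encodes an inhibitory carrier cleaved by the protease PAPP-A, was called in none of the 8 comparisons of LCA with RCA; 1 of those 8 had an unadjusted p under 0.05. That was vehicle at 48 h, where the LCA lay between 10.47 and 11.86 and the RCA between 11.39 and 11.65. The LCA minus RCA difference was -1.18, 0.10, -0.44, 0.47 and -0.63 in mice 1 to 5, lower in 3 of them and higher in mice 2 and 4. The difference was -0.33 (adjusted p = 0.0877), and it passed without mouse 4 (-0.54, adjusted p = 0.00598) or mouse 2 (-0.44, adjusted p = 0.0404). Igfbp4 was the one measured gene called for a change over time in the control RCA, with atorvastatin (adjusted p = 0.0252, 5.88% of all genes were called) and with vehicle (adjusted p = 0.0153, 26.8%). The RCA means ran 11.87, 12.06, 11.74 and 11.49 from 12 h to 2 weeks with atorvastatin, and 11.88, 11.91, 11.56 and 11.49 with vehicle, with SDs of 0.10 to 0.26. The atorvastatin call was lost without mouse 6 or 9 at 24 h or mouse 6 or 10 at 2 weeks (adjusted p = 0.051 to 0.077).

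The change of the LCA minus RCA difference over the 4 times was tested for each gene. With atorvastatin 4 of the 8 genes passed (33.5% of all genes did): Igf1 (adjusted p = 0.0108), Igf2 (4.85e-11), Igfbp2 (9.2e-12) and Igfbp3 (0.0148). With vehicle 5 passed (32.9%): Igf1 (0.0422), Igf2 (1.61e-08), Igf1r (0.00861), Igfbp2 (1.92e-08) and Igfbp3 (0.000654). The Igf1 calls were lost with the probe sets averaged (adjusted p = 0.059 with atorvastatin and 0.173 with vehicle), and the call with vehicle also with no filter (0.0588) or without any 1 of 9 mice, at adjusted p-values of 0.059 to 0.148. Without mouse 4 of 48 h Igfbp4 passed too with vehicle (0.0228), and so did its change of 48 h against 24 h (-0.76, adjusted p = 0.00541). The Igfbp3 call with atorvastatin was lost without mouse 6 (0.149) or 9 (0.179) of 48 h. Between neighbouring times, none of the 8 genes passed for 24 h against 12 h (0% of all genes under either treatment). At an unadjusted p under 0.05, 2 of the 8 passed there with atorvastatin and none with vehicle. Of all 11341 genes, 756 and 1189 did. For 48 h against 24 h, 1 passed with atorvastatin (24.1%) and 3 with vehicle (27.8%). With vehicle Igf2 fell further (-1.51, adjusted p = 0.0163) and the Igf1r difference shrank (-0.53, adjusted p = 0.0239). The Igf2 call was lost without mouse 1 (-1.29, adjusted p = 0.0621) or 3 (-1.34, adjusted p = 0.0538) of 48 h. The Igf1r call was lost without mouse 3 or 4 of 24 h or mouse 1 or 5 of 48 h (-0.49 to -0.42, adjusted p = 0.0559 to 0.106), with the probe sets averaged (-0.35, adjusted p = 0.122) and with the variance model that uses a trend and robust estimation (-0.53, adjusted p = 0.0546). With atorvastatin Igf2 passed this step only when mouse 8 of 48 h was left out (-1.48, adjusted p = 0.042). For 2 weeks against 48 h, 2 passed with atorvastatin (8.32%) and 3 with vehicle (5.76%), with a further fall of Igf2 of -4.22 with atorvastatin (adjusted p = 7.32e-07) and -2.75 with vehicle (adjusted p = 0.000281).

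Atorvastatin was compared with vehicle in the LCA, in the RCA and in the LCA minus RCA difference, at each time and over the 4 times. In none of these 15 comparisons did limma call any of the 8 genes, and the background was close to 0 as well, at 0% of all genes in every comparison within the LCA. Within the RCA it was 0.0441% at 12 h, 0% at 24 h and 48 h, 0.00882% at 2 weeks and 0.0176% over the 4 times. For the LCA minus RCA difference it was 0.00882% at 12 h, 0.0176% at 2 weeks and 0% in the other 3 comparisons. Each of the 8 genes was tested in all 15 comparisons, and 8 of these tests had an unadjusted p under 0.05. Of all 11341 genes, between 296 and 1274 had an unadjusted p under 0.05 in each comparison. The Igf2 difference at 2 weeks was -6.11 ± 0.34 in atorvastatin mice and -4.81 ± 1.36 in vehicle mice (SD, n = 5 each), a difference of -1.30 (95% interval -2.25 to -0.35, adjusted p = 0.902). For Igfbp2 it was 4.97 ± 0.60 in atorvastatin mice and 3.71 ± 1.65 in vehicle mice, a difference of 1.26 (95% interval 0.42 to 2.09, adjusted p = 0.713). Without vehicle mouse 2, given above, these 2 differences were -0.71 for Igf2 and 0.57 for Igfbp2 (adjusted p = 1.0 each). Igfbp5 in the LCA at 48 h was 6.77 ± 1.98 with atorvastatin (n = 4) and 4.59 ± 0.94 with vehicle (n = 5), a difference of 2.18 (95% interval 0.48 to 3.87, adjusted p = 0.971). That value was 1.40 without atorvastatin mouse 7 (adjusted p = 0.702) and 3.0 without atorvastatin mouse 6 (adjusted p = 0.277). A p that misses the threshold does not show that the treatments act alike.

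Other genes of the pathway were followed by role, from lists chosen by function. Of all genes tested, 13.1% were called with atorvastatin and 14.3% with vehicle at 24 h, 31.8% and 36.2% at 48 h, and 29.9% and 27.7% at 2 weeks, which is the background to the count of each list. The list of other binding proteins and the acid-labile subunit held 4 genes (Igfbp1, Igfbpl1, Igfals and Esm1), of which only Esm1 passed the filter. Whether the Esm1 product binds the ligands was not tested, so its values are not a result about IGF carriers. Esm1 rose at 48 h with atorvastatin (4.20, SE 0.89, adjusted p = 0.000544) and with vehicle (5.55, SE 0.80, adjusted p = 3.15e-06). Esm1 lay above the array median on only 12 of 78 arrays, so these p-values may not be independent of its entry to the test. Of 6 tested proteases of binding proteins and their inhibitors, 2 rose and 1 fell at 48 h with atorvastatin, 1 rose and 1 fell with vehicle, 4 rose at 2 weeks with atorvastatin and 1 with vehicle. Adam12, which encodes a metalloprotease whose human form cleaves IGFBP3 and IGFBP5, rose in all 4 of these comparisons, by 4.79 with atorvastatin and 5.25 with vehicle at 48 h, and by 4.91 with atorvastatin and 4.30 with vehicle at 2 weeks (SE 1.04 to 1.16, adjusted p = 0.00018 to 0.00184). Htra1, a serine protease gene, fell at 48 h (-1.0 with atorvastatin, adjusted p = 0.0049, and -1.07 with vehicle, adjusted p = 0.000862), and rose with atorvastatin at 2 weeks (0.68, adjusted p = 0.0332). The median over the 6 genes was 0.91 with atorvastatin and 0.29 with vehicle at 2 weeks, beside -0.03 and -0.01 over all genes.

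Among 7 tested receptor relatives and docking proteins, 1 rose and 1 fell with atorvastatin and 1 rose with vehicle at 24 h, 2 fell with atorvastatin and 1 rose and 3 fell with vehicle at 48 h, and 1 rose and 1 fell with atorvastatin and 2 rose and 1 fell with vehicle at 2 weeks. Gab1, an adaptor of receptor tyrosine kinases, rose at 24 h by 0.99 with atorvastatin (adjusted p = 0.000883) and 0.94 with vehicle (adjusted p = 0.00145). Grb10, an imprinted gene whose product restrains IGF and insulin receptors, rose at 2 weeks by 0.64 with atorvastatin (adjusted p = 2.52e-06) and 0.32 with vehicle (adjusted p = 0.0113). Of 15 tested genes of the intracellular pathway, the largest counts were 1 rise and 4 falls with atorvastatin and 1 rise and 5 falls with vehicle at 48 h. Its median at 48 h was 0.01 with atorvastatin and -0.17 with vehicle, beside -0.01 and 0.01 over all genes. Foxo3, a transcription factor that AKT holds out of the nucleus, rose at 24 h (0.66 with atorvastatin and 0.58 with vehicle) and fell at 48 h (-0.50 and -0.41). The related Foxo4 fell at 48 h (-1.08 with atorvastatin and -0.80 with vehicle) and at 2 weeks (-0.90 and -0.73). Pik3r1, the regulatory subunit gene of PI3K, rose at 2 weeks by 0.37 with atorvastatin and 0.78 with vehicle.

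In the growth hormone arm, 1 of 5 genes rose with atorvastatin at 24 h, at 48 h 1 rose and 1 fell with atorvastatin and 2 fell with vehicle, and at 2 weeks 1 fell with atorvastatin. Ghr, the growth hormone receptor gene, rose at 24 h with atorvastatin (0.65, adjusted p = 0.00717) and fell at 48 h (-0.48 with atorvastatin, adjusted p = 0.0455, and -0.67 with vehicle, adjusted p = 0.00181). Of 5 tested imprinted genes near Igf2 or reported to be regulated with it, 1 rose at 24 h under each treatment, 3 fell at 48 h with vehicle and none with atorvastatin, and 1 fell at 2 weeks under each treatment. Ndn, the necdin gene, fell at 2 weeks (-1.56 with atorvastatin, SE 0.24, adjusted p = 3.21e-06, and -1.46 with vehicle, SE 0.24, adjusted p = 1.23e-05). Peg3 rose at 24 h (1.32 with atorvastatin and 1.45 with vehicle) and fell at 48 h with vehicle (-1.06). Plagl1, which encodes a transcription factor known to act on the Igf2-H19 region in mouse, was called by limma in none of the 8 comparisons, 1 of which had an unadjusted p under 0.05. The 1 tested IGF2 mRNA-binding protein gene, Igf2bp3, fell at 2 weeks with vehicle (-0.52, adjusted p = 0.0382). Without vehicle mouse 4 at 48 h or vehicle mouse 2 at 2 weeks, the vehicle calls of the pathway genes named here at those times were kept. The counts with vehicle moved to 2 rises of proteases (1 with all mice), 5 falls of receptor relatives (3), and 2 rises and 4 falls in the intracellular pathway (1 and 5) at 48 h, and to 2 rises of proteases (1) at 2 weeks. Over all 11341 genes the median difference lay between -0.03 and 0.03 in every comparison of LCA with RCA.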

How the data were processed

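Gene expression in flushed carotid endothelium was measured on 78 Affymetrix mouse arrays, 2 arteries in each of 39 mice. The deposited values are log2 expression values that the authors made with RMA, per the submitters' processing notes; they ran from 1.79 to 13.235, with array medians of 4.59 to 4.77. The number of arrays limits the precision. Of 45118 probe sets, 81 were controls, 28898 had 1 symbol in the platform annotation, 551 had several and 15588 had none.

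Genes above the array median on at least 4 arrays were tested (11341 of 17097). The within-mouse LCA minus RCA difference was fitted over 8 mouse groups with limma 3.58.1 (statmod 1.5.0, R 4.3.3), and LCA and RCA levels likewise; p-values were Benjamini-Hochberg adjusted over all tested genes at 0.05 in each of 33 comparisons. Tables and figures used Python 3.11.15, pandas 2.3.3, numpy 2.4.6 and matplotlib 3.10.9. The labels place both arteries in 1 animal, so the pairing comes from the design; same-mouse deviations from the group means correlated between -0.34 and 0.513 (median 0.088), above 0.1 in 19 of 39 mice. On simulated data of 11341 genes for LCA against RCA at 48 h, 69.4% of genes changed by 1 log2 unit and 97.4% of those changed by 2 were found for atorvastatin, and 78.2% and 95.8% for vehicle. The simulation drew independent normal noise with 1 spread per gene over all 8 groups. It does not cover genes with a wider spread at 48 h, such as Igfbp3 (SD 3.44 with atorvastatin and 2.74 with vehicle).

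The 10 genes described (the members) and the gene lists were chosen with earlier results of these data known. The text names all members, the 3 tested genes nearest each called member by Pearson's r of the difference, and genes of fixed pathway lists. Alternatives covered the filter, a further quantile normalization, probe set averaging, the variance model, the pairing, a title-code number as a random block, fits to 1 group and leaving out each mouse. Recounting the gene lists without the 2 vehicle mice that stood apart was added after seeing the data.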

Additional observations from a re-analysis of the deposited data

Results flagged for a closer look

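Among 192 groups of 4 or 5 values, 15 held a sample far from the others, where chance gives about 1 in 20. Vehicle mouse 2 at 2 weeks accounted for 4 of them, with an Igf2 difference of -2.47 and LCA values of 11.92 for Igfbp4, 7.63 for Igfbp5 and 5.01 for Igfbp6. Atorvastatin mouse 7 at 2 weeks had LCA values of 6.50 for Igfbp5 and 4.67 for Igfbp6, above the rest of its group. Vehicle mouse 2 at 48 h had an Igfbp5 LCA value of 6.25 and an Igfbp5 difference of -0.71. Vehicle mouse 4 at 24 h had an Igfbp3 LCA value of 3.50 and difference of 1.04, both close to the floor of the array. The other outlying values were an Igf1 RCA value of 3.81 in atorvastatin mouse 9 at 48 h, an Igf1 LCA value of 6.77 in vehicle mouse 3 at 2 weeks, an Igf1r RCA value of 7.38 in atorvastatin mouse 8 at 12 h, an Igfbp2 RCA value of 4.05 in vehicle mouse 4 at 2 weeks and an Igfbp6 difference of -2.92 in atorvastatin mouse 7 at 12 h.

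The LCA minus RCA difference changed between neighbouring times by a test of the change itself in 9 cases. From 24 h to 48 h, Igfbp3 changed by 3.56 with atorvastatin and 4.31 with vehicle, and with vehicle Igf2 changed by -1.51 and Igf1r by -0.53. From 48 h to 2 weeks, Igf2 changed by -4.22 with atorvastatin and -2.75 with vehicle, Igfbp2 by 5.14 with atorvastatin and 3.78 with vehicle, and Igfbp3 by -4.08 with vehicle.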

How the results depend on the processing

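No called difference reversed under any alternative run. In fits to the mice of 1 group, the number of the 8 genes called fell to 0 for atorvastatin at 12 h (1 over all mice). It fell to 0 for atorvastatin at 48 h (3) and to 0 for vehicle at 12 h (1), and the cause was not tested. The count of all genes called fell there to 12 (191), 213 (3610) and 72 (271), and to 1930 (4108) for vehicle at 48 h. The same fits gained calls of Igf2 at 24 h (-0.81, adjusted p = 0.0206) and Igfbp6 at 2 weeks (-1.13, adjusted p = 0.00777) with atorvastatin. With no replicate block, that is without the pairing of arteries, 1 gene was called for vehicle at 24 h (2 with it), since Igfbp5 had an adjusted p of 0.0536; Igf1r with vehicle at 2 weeks (0.112) was the other call lost, and no other call changed. Under the stricter filter, which leaves out Igfbp2 and Igfbp3, the change over the 4 times was called for 2 genes with atorvastatin (4) and 3 with vehicle (5), 2 weeks against 48 h for 1 with atorvastatin (2) and 1 with vehicle (3), and 48 h against 24 h for 0 with atorvastatin (1). With all probe sets of a gene averaged, 2 genes changed over time in the RCA with atorvastatin and 2 with vehicle (1 each); the cause was not tested. Leaving out 1 mouse gave 1 to 2 genes for vehicle at 24 h, 0 to 2 with atorvastatin and 1 to 4 with vehicle for 48 h against 24 h, and 0 to 2 with atorvastatin and 1 to 2 with vehicle for the RCA over time. All-gene counts of LCA against RCA then ran from 85 to 323 at 12 h, 824 to 1222 at 24 h and 2091 to 4335 at 48 h with atorvastatin, and from 147 to 195, 898 to 1367 and 2727 to 4663 with vehicle. Extraction batch, for which no assignment was used here, and signals near the floor of the array limit all sizes given for Igf2, Igfbp2 and Igfbp3.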
